A study of Homo sapiens with 9 samples.

Results

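The Sprouty genes SPRY1, SPRY2, SPRY3 and SPRY4 and the SPRED genes SPRED1, SPRED2 and SPRED3 were examined in human embryonic kidney HEK293 cells that stably expressed HA-tagged MEK1. All 3 cell lines carried a MEK1 transgene, which was wild type (WT), F53S, found in RASopathies (developmental disorders caused by mutations of the RAS-ERK pathway), or K57N, found in cancers. RNA came from cells at steady state, with 3 arrays per line. The 7 genes were chosen by name, with earlier results of these data known. Their 11 probes are all the non-control probes that carry these names among the 50598 probes and 36618 gene names of the array. Testing required a signal that the scanner software marked as well above background throughout 1 line or more, which left 8 probes of 6 of these genes among 25400 probes and 19211 genes. The labels give 1 line per MEK1 form, and whether each was a clone or a pool is not given in the sources used here, so other differences between the lines and the mutation itself cannot be told apart.

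Sprouty and SPRED proteins are brakes on receptor tyrosine kinase signaling that share a cysteine-rich domain. Sprouty proteins act near the adaptor GRB2 and on RAF activation, whereas SPRED proteins recruit neurofibromin (NF1), a GTPase-activating protein for RAS. Several of these genes are transcribed in response to ERK activity, so the family serves as a negative feedback loop, and loss of SPRED1 causes Legius syndrome, itself a RASopathy.

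In the fit with no block, the SPRY4, SPRY2 and SPRED1 transcripts exceeded WT in K57N cells by 22-fold, 4.79-fold and 2.44-fold, and SPRY2 was also higher in K57N than in F53S cells. With the slide or the replicate number as a block, SPRED2 was called as well in K57N against WT, and SPRY4 in K57N against F53S. For SPRY4 the call held at 1 of its 2 probes, where 1 WT array was not well above background, and the log2 difference of 4.46 became 2.88 with another background correction. The SPRED1 call was made in 10 of 23 alternative settings. No member passed the test in F53S against WT cells, where the SPRY4 difference was the largest among them. SPRY1 and SPRY3 passed it in no comparison, and SPRED3 was too dim to test. Levels below are the log2 of the signal relative to the 75th percentile of the array, so 0 equals that percentile. A transcript was called at over 2-fold with an adjusted p under 0.05 in a limma fit of all 3 lines. Arrays measure RNA in bulk, so fewer cells with a transcript and less of it per cell cannot be told apart.

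The first 30 of the 60 bases of the probes that carry the results are shown, because the SPRY4 and SPRY1 genes each have 2 probes that read different stretches. The positions are those of the array annotation on hg19.
SPRY2 probe, chr13:80910622-80910681, minus strand: agaacttggtgacccatgtattgcataagc
SPRY4 probe 1, chr5:141690571-141690630, minus strand: tcgccatcatacctcgagtgaggcccagct
SPRY4 probe 2, chr5:141694487-141694546, minus strand: tgaagaccagccatgtggagaatgactaca
SPRED1 probe, chr15:38645760-38645819, plus strand: tactgtttatatatttgaatgctgctacaa
SPRED2 probe, chr2:65538851-65538910, minus strand: accggtgtaaatacccagtgtgcttatgag
SPRY1 probe 1, chr4:124318918-124318977, plus strand: aagggacgacgcccgcctttctctctccga
SPRY1 probe 2, chr4:124324494-124324553, plus strand: ctcaagttgatatttatagctgatcaatct
Both SPRY4 probes belong to the RefSeq transcript NM_030964, with probe 1 at base 4353 and probe 2 at base 437 of it, so probe 1 lies far closer to its 3′ end. SPRY1 probe 1 is annotated to the Ensembl transcript ENST00000505319 and probe 2 to NM_199327.

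Slide 1 held replicate 1 of each line, and slide 2 held replicates 2 and 3. The 75th percentile of the signal was 245 to 376 on slide 1 and 695 to 821 on slide 2, and 23714 to 26113 probes against 27115 to 29324 were well above background. Since each slide held all lines, the slide was also fitted as a block, and values within slides are given where they matter. The median standard error of a difference over all genes was 0.29 without the block and 0.13 with it. Of 8 HEK293 markers, 7 cleared the background on all 9 arrays. Among markers of other cell types, DCN, COL1A2 and ALB were above it on no array, whereas PTPRC, CDH5 and DES had a probe above it on all 9. None of the 7 HEK293 markers tested was called in any comparison, nor were PTPRC, CDH5 and DES. At an unadjusted p below 0.05 in limma, 3 HEK293 markers, KRT18, LHX1 and NEFL, were higher in K57N than in WT cells, 3 of the 7 tested, where 6.15% of all genes were.

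**Figure D1:**
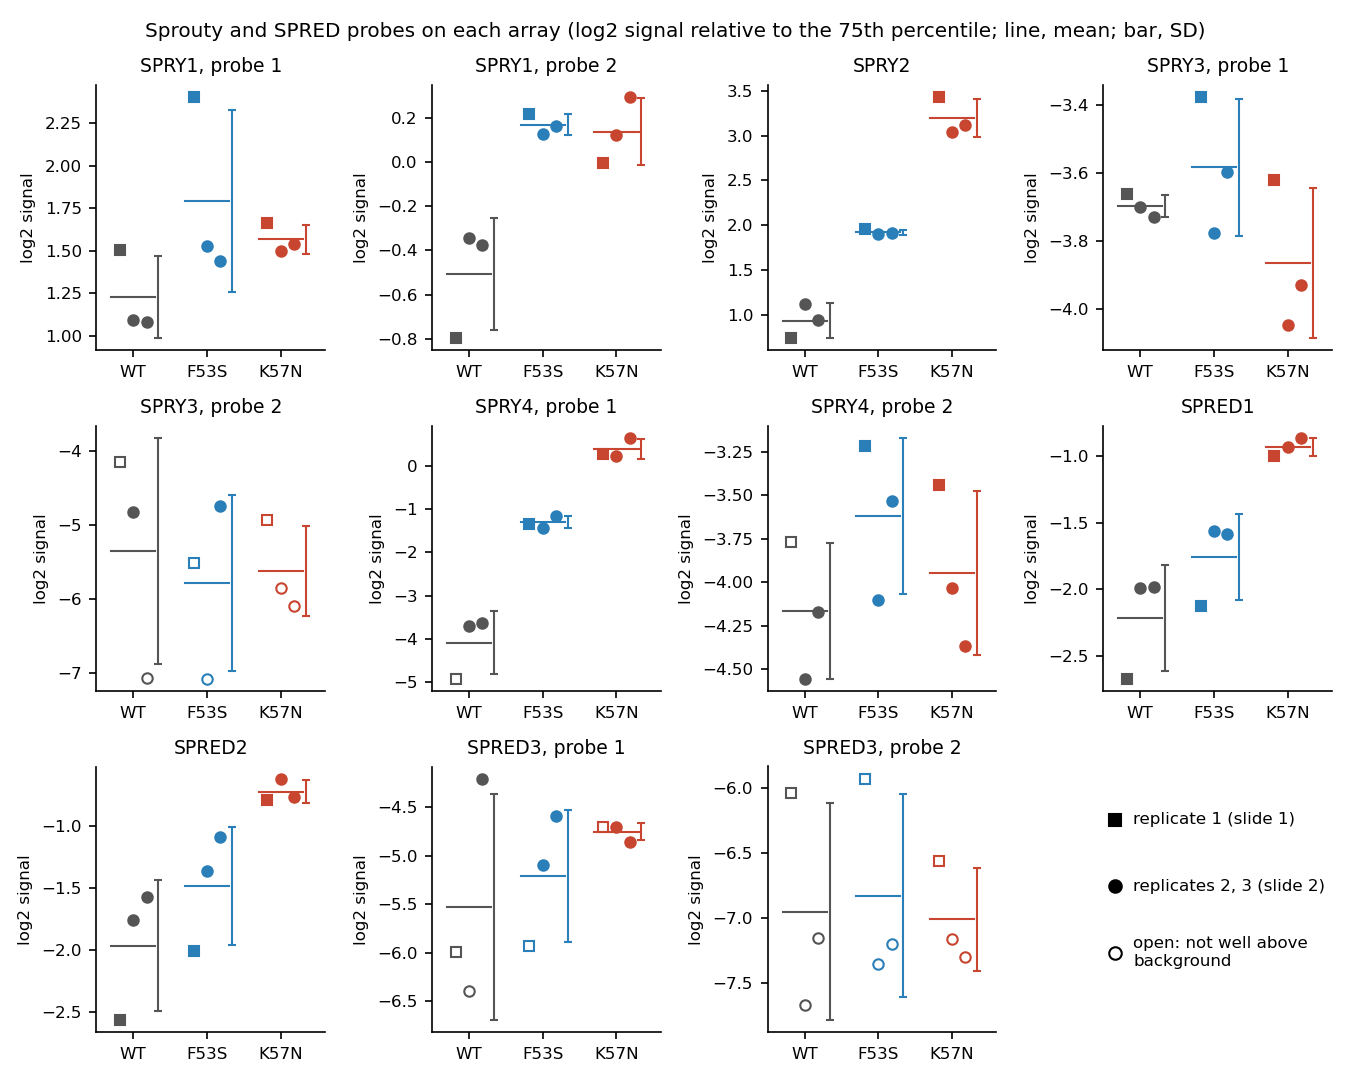
Log2 signal relative to the array's 75th percentile (y axis) for all 11 Sprouty and SPRED probes in WT, F53S and K57N cells (x axis). Each point is 1 array, squares are slide 1, circles slide 2, open points were not well above background, lines are means and bars SD of 3 arrays. The K57N arrays lie above all WT arrays for SPRY1 probe 2, SPRY2, SPRY4 probe 1, SPRED1 and SPRED2.

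SPRY2, the Sprouty gene induced by many growth factors, gave 0.74, 1.12 and 0.95 on the WT arrays, 1.96, 1.91 and 1.91 on the F53S arrays and 3.44, 3.04 and 3.12 on the K57N arrays. The 3 lines did not overlap, and the F53S arrays lay between the others with the smallest spread (mean 1.92 ± 0.028, SD, n = 3). The log2 difference between K57N and WT was 2.26 (SE 0.17, limma adjusted p = 0.00054), or 4.79-fold. It was called in each of the 23 alternative settings, at values between 2.04 and 2.35. SPRY2 was also 1.27 higher in K57N than in F53S cells (SE 0.17, limma adjusted p = 0.0126), or 2.42-fold. That call was made in 17 of the 23 settings and in 5 of the 9 fits that left out 1 array. Without a filter on dim probes its adjusted p was 0.123, and the arrays whose removal ended the call were F53S replicates 2 and 3 and K57N replicates 2 and 3. F53S exceeded WT by 0.99 (SE 0.17), which is 1.98-fold, with a limma adjusted p of 1 and of 0.146 with the slide as a block.

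SPRY4, which blocks RAS-ERK activation and is known as a transcript that follows ERK output, had the widest range of the family at probe 1. That probe gave -4.93, -3.69 and -3.62 on the WT arrays, -1.33, -1.43 and -1.16 on the F53S arrays and 0.27, 0.23 and 0.65 on the K57N arrays. The 3 lines again did not overlap. Before scaling, the signals were 9.37, 63.2 and 56.5 in WT and 453, 963 and 1250 in K57N cells, so WT was near the dim end of the scale and WT replicate 1 was not well above background. K57N exceeded WT by 4.46 (SE 0.34, 95% interval 3.69 to 5.23, limma adjusted p = 0.00053), or 22-fold. The difference was 5.20 on slide 1 and 4.09 on slide 2, and 4.04 without WT replicate 1. With another background correction (normexp with an offset of 50), which raises dim signals, it was 2.88 and still called, with an adjusted p of 0.00060.

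F53S exceeded WT at SPRY4 probe 1 by 2.77 (SE 0.34, 95% interval 1.999 to 3.54), or 6.83-fold, without passing the adjusted test (limma adjusted p = 0.349, and 0.0835 with the slide as a block). Without WT replicate 1, the array not well above background, the difference was 2.35 and was called (limma adjusted p = 0.0356). With normexp it was 1.48. K57N exceeded F53S by 1.69 (SE 0.34, 95% interval 0.92 to 2.46, limma adjusted p = 0.0614), or 3.23-fold, which missed the threshold. With the slide as a block this became a call (adjusted p = 0.0078), as it did with the replicate number as a block (adjusted p = 0.0145) and on slide 2 alone (1.73, adjusted p = 0.0122). It was no call with the slide block and no filter on dim probes (adjusted p = 0.052, a setting chosen after seeing the data). The mean of both SPRY4 probes gave 0.68 (adjusted p = 0.216), and probe 2 alone -0.33.

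SPRY4 probe 2 did not repeat the pattern of probe 1. It gave -3.77, -4.56 and -4.17 on the WT arrays, -3.21, -4.10 and -3.54 on the F53S arrays and -3.44, -4.03 and -4.37 on the K57N arrays, and all lines overlapped. Its signals before scaling were between 20.9 and 63.4 on every array, and 8 of 9 arrays marked it as well above background. The difference between K57N and WT was 0.22 (95% interval -0.53 to 0.97, limma adjusted p = 0.939), an interval that excludes the value of probe 1. The mean of both probes gave 2.34 for K57N against WT (limma adjusted p = 0.00078). Why the probes disagree was not tested.

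SPRED1, the SPRED gene mutated in Legius syndrome, gave -2.68, -1.99 and -1.98 on the WT arrays, -2.13, -1.56 and -1.58 on the F53S arrays and -1.001, -0.93 and -0.86 on the K57N arrays. All K57N arrays lay above all others, whereas F53S and WT overlapped. The slide 1 arrays of WT and F53S were the lowest of their lines. K57N exceeded WT by 1.29 (SE 0.24, limma adjusted p = 0.0331), or 2.44-fold. This call was sensitive: it was made in 10 of the 23 settings and in 1 of the 9 fits without 1 array, the one without F53S replicate 1, and in the other 8 the adjusted p was between 0.0610 and 0.142. With the slide as a block the adjusted p was 0.00073, and on slide 2 alone the difference was 1.09 (adjusted p = 0.0026). K57N exceeded F53S by 0.83 (limma adjusted p = 0.224), and F53S exceeded WT by 0.46 (95% interval -0.10 to 1.02, limma adjusted p = 1).

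SPRED2, the paralogue that likewise binds NF1, gave -2.57, -1.76 and -1.57 on the WT arrays, -2.01, -1.36 and -1.08 on the F53S arrays and -0.79, -0.61 and -0.76 on the K57N arrays. As for SPRED1, the K57N arrays lay above all others and the WT and F53S arrays of slide 1 were the lowest of their lines. K57N exceeded WT by 1.25 (SE 0.31, 95% interval 0.53 to 1.97), or 2.37-fold, with a limma adjusted p of 0.0934. With the slide as a block it was called (adjusted p = 0.0040), and likewise with the replicate number as a block (adjusted p = 0.0092). K57N exceeded F53S by 0.76 (limma adjusted p = 0.448) and F53S exceeded WT by 0.48 (limma adjusted p = 1), each below 2-fold.

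**Figure D2:**
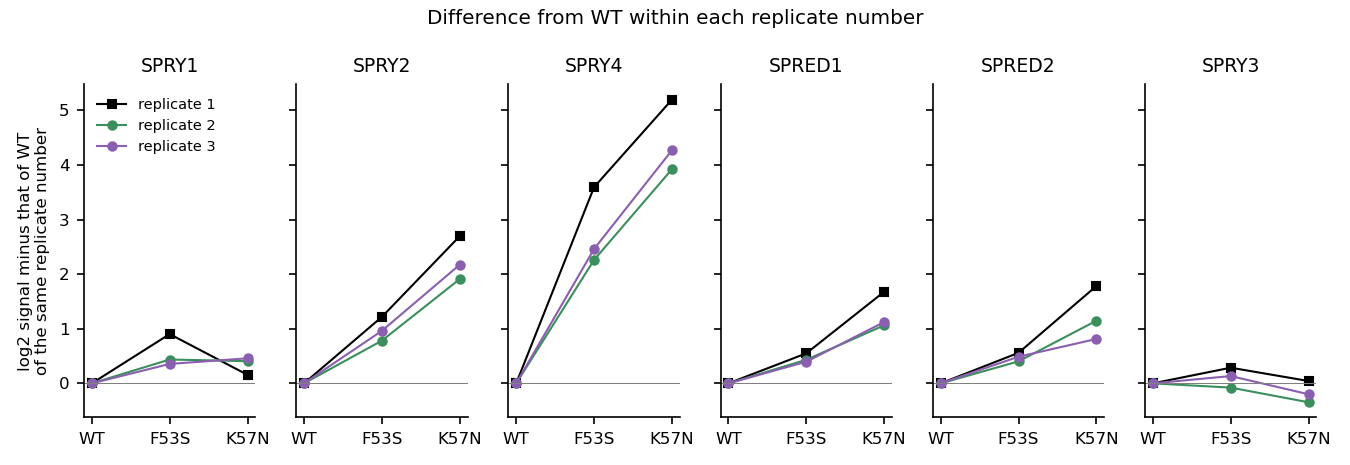
Log2 signal minus that of the WT array with the same replicate number (y axis) in WT, F53S and K57N cells (x axis), for the probe that represents each tested gene. Squares are replicate 1 on slide 1, circles replicates 2 and 3 on slide 2. For SPRY2, SPRY4, SPRED1 and SPRED2 each of the 3 replicates climbs from WT through F53S to K57N, which it does not for SPRY1 and SPRY3.

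SPRY1 passed the test in no comparison. Probe 1, the brighter, gave 1.51, 1.09 and 1.08 on the WT arrays, 2.41, 1.53 and 1.44 on the F53S arrays and 1.66, 1.499 and 1.54 on the K57N arrays. F53S replicate 1 stood above all other arrays, and WT and F53S overlapped. K57N differed from WT by 0.34 (95% interval -0.28 to 0.96, limma adjusted p = 0.757) and F53S from WT by 0.57 (95% interval -0.05 to 1.18, limma adjusted p = 1). The difference between K57N and F53S was -0.22 (95% interval -0.84 to 0.39) and turned to 0.083 without F53S replicate 1 and to 0.036 on slide 2 alone.

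SPRY1 probe 2 gave -0.80, -0.35 and -0.37 on the WT arrays, 0.22, 0.12 and 0.16 on the F53S arrays and -0.0048, 0.12 and 0.29 on the K57N arrays. Both mutant lines lay above every WT array, and their ranges overlapped each other. The differences from WT were 0.64 in K57N (SE 0.18, limma adjusted p = 0.120) and 0.67 in F53S (SE 0.18, limma adjusted p = 1), and those lines differed by -0.032. With the slide as a block the adjusted p in K57N was 0.0109, at 1.56-fold, under the threshold on fold. The 95% interval of the difference between the mutant lines ran from -0.43 to 0.37.

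SPRY3 lies in a pseudoautosomal region, and the array lists its Y copy. Probe 1 was dim, with signals between 22.5 and 62.8 before scaling. It gave -3.66, -3.70 and -3.73 on the WT arrays, -3.38, -3.78 and -3.60 on the F53S arrays and -3.62, -4.05 and -3.93 on the K57N arrays, with all lines overlapping. The differences were -0.17 for K57N against WT (95% interval -0.57 to 0.24, limma adjusted p = 0.859), 0.11 for F53S against WT and -0.28 for K57N against F53S. Probe 2 cleared the background on 2 of 9 arrays only and was not tested.

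SPRED3, the member of the SPRED group with the narrowest known expression, was near background throughout. Probe 1 cleared the background on 1 WT, 2 F53S and 2 K57N arrays, and probe 2 on 0 of the 9, so neither was tested.

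Counted by gene, 3 of the 6 tested members (SPRY2, SPRY4 and SPRED1) exceeded WT in K57N cells and 0 were lower, where 1.52% and 0.739% of all genes were. SPRY4 entered the test through the mutant lines, since 2 of its 3 WT arrays were well above background, and with a filter that required all 9 arrays the count was 2, SPRY2 and SPRED1. With the slide as a block the count was 4, with SPRED2 added, against 2.56% of all genes. In F53S against WT cells limma called 0 members in either direction, with and without the slide block, where 0% of all genes were called higher and 0% lower. At an unadjusted p below 0.05, SPRY2 and SPRY4 were higher there, 2 of 6 members, where 0.619% of genes were. At the same unadjusted threshold with the slide as a block, 5 of 6 members, all but SPRY3, were higher, where 2.33% of genes were.

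Between the mutant lines 1 member (SPRY2) was higher in K57N than in F53S cells and 0 were lower, against 0.953% and 0.245% of genes. With the slide as a block 2 were higher, SPRY2 and SPRY4, against 1.88%. The median log2 difference over the 6 members was 1.27 for K57N against WT, 0.52 for F53S against WT and 0.80 for K57N against F53S. Over all 19211 genes it was -0.057, 0.012 and -0.066. The comparisons of each mutant with WT share the WT arrays, so their values for the members stand side by side and are not independent.

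**Figure D3:**
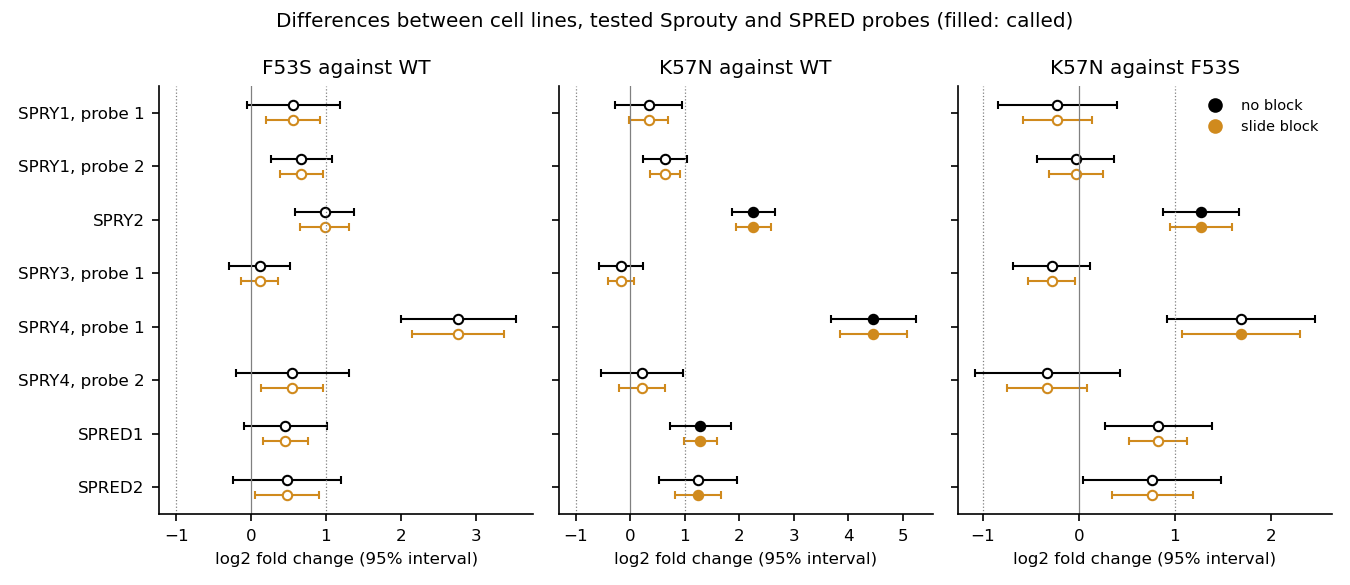
Log2 fold changes with 95% intervals (x axis) of the 8 tested Sprouty and SPRED probes (y axis) in the 3 comparisons of cell lines. Black is the fit with no block, orange the fit with the slide as a block, and filled points were called. Called in K57N against WT are SPRY2, SPRY4 probe 1 and SPRED1 without a block, and SPRED2 as well with it.

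By the order of arrays alone, all K57N arrays exceeded all WT arrays for 4 of the 6 members, SPRY2, SPRY4, SPRED1 and SPRED2, as for 10.2% of genes. The same 4 members had all K57N arrays above all F53S arrays, as for 8.3% of genes. SPRY2 and SPRY4 had all F53S arrays above all WT arrays, which held for 1.54% of genes. Within each replicate number, SPRY2, SPRY4, SPRED1 and SPRED2 had WT below F53S below K57N in all 3 triplets, where 5% of genes did. SPRY4 stands here for its probe 1, which entered the test through the mutant lines, with 2 of 3 WT arrays well above background. At SPRY4 probe 2 the lines overlapped, and this order held in replicate 2 alone. For SPRY2 the steps from WT to F53S were 1.22, 0.78 and 0.96 and those from F53S to K57N 1.48, 1.13 and 1.21 in replicates 1, 2 and 3. For SPRY4 the first steps were 3.59, 2.26 and 2.46 and the second 1.60, 1.66 and 1.81. The first SPRY4 steps rest on a dim WT level, and with normexp the mean steps were 1.48 and 1.39.

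MAP2K1, which encodes MEK1 and was expressed as a transgene in all lines, had means of 2.37 ± 0.042 for WT, 2.45 ± 0.059 for F53S and 2.85 ± 0.060 for K57N (SD, n = 3). It was 0.48 higher in K57N than in WT cells (limma adjusted p = 0.135). The array has 1 probe for it, which cannot tell the mutations apart and so checks no label. The part of this difference in the levels of the Sprouty and SPRED transcripts was not tested.

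The binding partners and targets of Sprouty and SPRED proteins were examined as a list. Of 17 such genes, including GRB2, SOS1, the ubiquitin ligase CBL, the phosphatase PTPN11, NF1 and the RAS and RAF genes, all were tested. In limma 0 were called in any comparison, with or without the slide block. At an unadjusted p below 0.05 without the block, 1 of the 17, BRAF, was higher in K57N than in WT cells (by 0.53, adjusted p = 0.158), where 6.15% of all genes were. With the block 4 were, BRAF, CBL, PPP2CA and PTPN11, where 14.8% of genes were, and each was under 2-fold. NF1, the partner of the SPRED proteins, differed by 0.00019 (SE 0.25, limma adjusted p = 0.9999). The median difference between K57N and WT over the 17 genes was 0.051.

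Of 12 other inhibitors of receptor, RAS and ERK signaling, 11 were tested and 4 were higher in K57N than in WT cells, where 1.52% of all genes were. These were the ERK phosphatase DUSP6 (6.32), the nuclear ERK phosphatase DUSP5 (4.49), DUSP4, which also acts in the nucleus (2.19), and ERRFI1, an inhibitor of the EGF receptor (1.63), as log2 differences with limma adjusted p between 0.00028 and 0.0052. The same 4 were higher in K57N than in F53S cells, where 0.953% of genes were. DUSP5 entered the test through the mutant lines, since 2 of its 3 WT arrays were well above background. Its differences from WT thus rest on a dim WT level. DUSP4, DUSP6 and ERRFI1 were well above background on all 9 arrays. SOCS3, a cytokine signaling inhibitor, was 0.90 higher in K57N than in WT cells (limma adjusted p = 0.0154), under 2-fold. The RAS GTPase-activating genes RASA1 and RASA2, the RAF inhibitor PEBP1, DUSP9, LRIG1 and IL17RD, also called SEF, were not called. Beside these values stand the SPRY4 difference of 4.46 at probe 1 and the SPRY2 difference of 2.26. In F53S against WT cells limma called 0 of the 11, with 4 higher at an unadjusted p below 0.05 where 0.619% of genes were, among them DUSP6 (2.90, adjusted p = 0.352).

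Of 10 transcripts used as readouts of ERK output, 8 were higher in K57N than in WT cells, against the same 1.52% of genes. These were DUSP6 and DUSP4, the immediate early gene EGR1 (5.29), the ETS factors ETV4 (5.02) and ETV5 (3.87), PHLDA1 (3.08), the AP-1 component FOSL1 (2.83) and the receptor EPHA2 (1.60). ETV4, ETV5 and PHLDA1 were well above background on 2 of the 3 WT arrays, so they entered the test through the mutant lines, where they were high. The WT values of ETV5 had an SD of 1.59, and the differences of these genes from WT rest on a dim WT level. Among the called readouts, DUSP4, DUSP6, EGR1, FOSL1 and EPHA2 were well above background on all 9 arrays. CCND1 (0.52, limma adjusted p = 0.604) and EPHA4 (0.23, limma adjusted p = 0.764) were not called. In K57N against F53S cells 5 were higher, against 0.953% of genes. In F53S against WT cells limma called 0, with 8 higher at an unadjusted p below 0.05, against 0.619% of genes. ETV4 exceeded WT by 3.61 in F53S cells (limma adjusted p = 0.320), and K57N exceeded F53S by 1.41 (limma adjusted p = 0.200). EGR1 exceeded WT by 1.46 in F53S cells, and K57N exceeded F53S by 3.83.

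**Figure D4:**
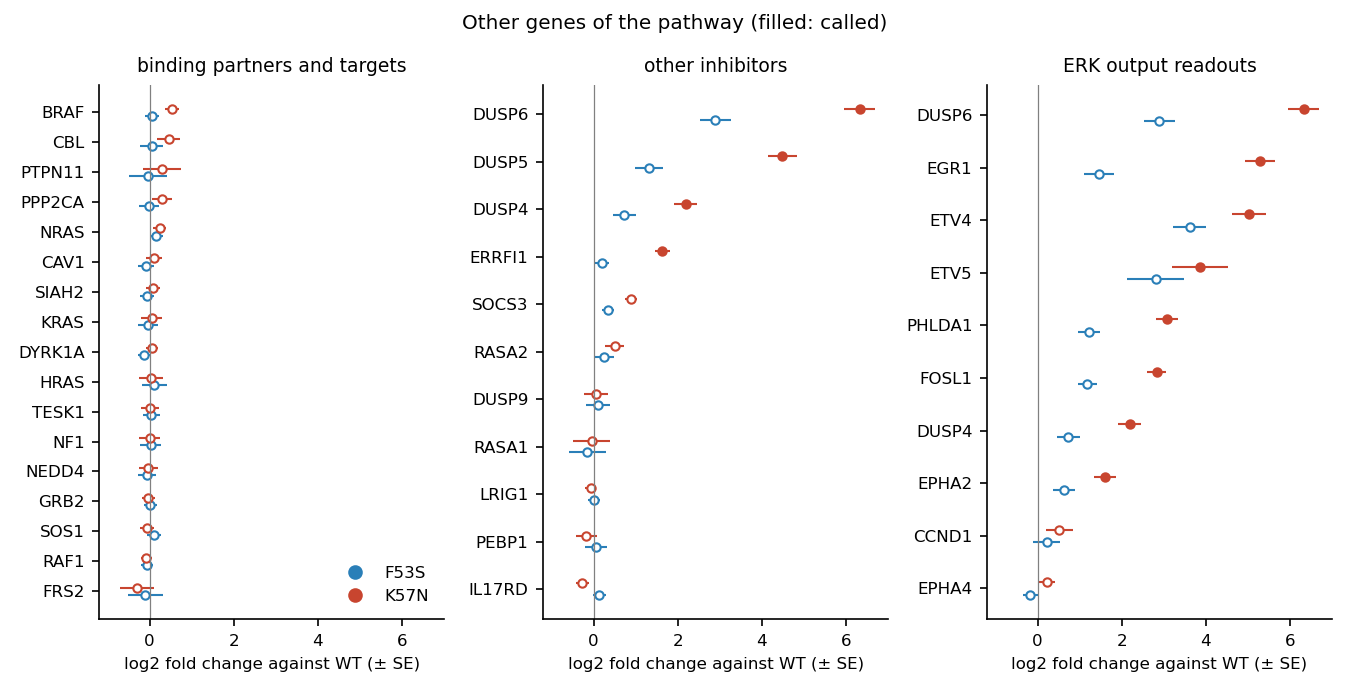
Log2 fold change against WT with SE (x axis) of the tested genes of 3 lists (y axis) in F53S (blue) and K57N (red) cells, with called genes filled. The binding partners and targets lie between -0.31 and 0.53 in K57N cells, whereas 4 other inhibitors and 8 ERK output readouts were called in K57N cells and none in F53S cells.

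The likeness of expression patterns was described by Pearson's r over the 9 arrays after the mean of each slide was removed, among the 13644 genes measured above background on every array. The points share 3 lines and 2 slides, so any gene that follows the order of the lines has a high r. The genes most like SPRY2 were DUSP6 (r = 0.998), the kinase gene PLK3 (0.997) and FOSL1 (0.995). SPRED1 stood at rank 11 (0.990) and SPRED2 at rank 125 (0.961) of the list of SPRY2. The genes most like SPRED1 were SH3RF3-AS1, an antisense transcript, FOS, the AP-1 component, and ANXA1, each at r = 0.996, and for SPRED2 they were FOS, SLC25A43 and EPHA2, each at 0.986. SPRED2 was at rank 59 for SPRED1 and SPRED1 at rank 7 for SPRED2 (r = 0.979).

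SPRY1, read at probe 1 only, and SPRY3 had patterns unlike those of SPRY2, SPRED1 and SPRED2. For SPRY1 probe 1 the most alike were CALM2 (0.958), CCDC85B (0.953) and PPIH (0.949), and SPRY2 came at rank 2924 (0.421). SPRY1 probe 2, at which both mutant lines lay above every WT array, was not part of this comparison, so the statement does not extend to it. For SPRY3 they were TSG101 (0.983), RFK (0.970) and DET1 (0.961), with r of -0.457 to SPRY2. SPRY4 was left out here because WT replicate 1 was not well above background.

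Promoter windows from RefSeq on GRCh38.p14, which reach from 250 bases before to 50 bases after a start site, were available for all 7 genes, as 16 windows. Those of SPRY2, SPRY4 and SPRED1 are shown because these members were called in K57N against WT. For SPRY2, which has 3 windows, the most upstream is given. Capitals mark matches to the motifs searched.
SPRY2 promoter, chr13:80341077-80341376, minus strand: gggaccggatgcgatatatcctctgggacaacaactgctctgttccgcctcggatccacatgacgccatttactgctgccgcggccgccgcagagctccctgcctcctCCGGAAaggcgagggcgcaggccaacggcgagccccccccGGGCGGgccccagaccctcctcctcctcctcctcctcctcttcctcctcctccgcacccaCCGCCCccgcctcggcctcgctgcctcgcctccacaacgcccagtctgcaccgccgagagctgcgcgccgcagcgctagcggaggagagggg
SPRY4 promoter, chr5:142324198-142324497, minus strand: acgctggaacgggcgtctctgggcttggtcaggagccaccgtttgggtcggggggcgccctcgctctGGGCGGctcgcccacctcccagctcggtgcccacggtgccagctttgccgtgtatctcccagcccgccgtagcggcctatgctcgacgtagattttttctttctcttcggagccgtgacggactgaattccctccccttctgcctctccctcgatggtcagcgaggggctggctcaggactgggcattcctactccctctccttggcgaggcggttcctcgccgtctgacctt
SPRED1 promoter, chr15:38252586-38252885, plus strand: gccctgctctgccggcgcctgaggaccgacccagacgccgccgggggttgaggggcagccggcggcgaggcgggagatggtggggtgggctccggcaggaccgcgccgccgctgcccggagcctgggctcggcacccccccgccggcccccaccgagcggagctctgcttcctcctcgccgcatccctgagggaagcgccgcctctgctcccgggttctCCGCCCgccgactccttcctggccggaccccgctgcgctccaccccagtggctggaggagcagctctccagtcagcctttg
The motifs, searched on both strands, were CCGGAAGT (ETS), its core CCGGAA, which lies inside it, GGGCGG (GC box), TGACTCA (AP-1), TGACGTCA (CRE), GCGTGGGCG (EGR) and the CArG box. With the first transcribed base as 0, the SPRY2 window held an ETS core at -142 to -137 and GC boxes at -102 to -97 and at -42 to -37. The SPRY4 window held 1 GC box at -183 to -178, and the SPRED1 window 1 at -31 to -26. None of the 3 windows held the ETS 8-mer, AP-1, CRE, EGR or CArG box letters.

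Over all 34943 windows of the same length, 4.11% held the ETS 8-mer, 17.2% its core, 44.9% a GC box, 4.96% AP-1, 1.84% CRE, 0.796% EGR and 1.30% a CArG box. Of the 16 windows of the family, 2 held the ETS core, 7 a GC box and 3 AP-1, the last in windows of SPRED2, SPRED3 and SPRY3, and 0 held any other of these motifs. In SPRED2 the AP-1 letters ended at the start site itself (-6 to 0). The GC content was 71.0% in the SPRY2 window shown, 65.0% in that of SPRY4 and 76.3% in that of SPRED1, against a median of 58.7% over all windows.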

How the data were processed

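Gene expression was measured in 9 samples with Agilent human arrays read with 1 dye. Per the file headers, the authors processed the scans with Agilent Feature Extraction 10.10.1.1, and the deposited intensity is the background-subtracted processed signal, with no scaling between arrays and positions on hg19. The log2 table that the authors deposited equals the log2 of that signal less a constant per array, within 0.02 for 100% of the probes, and was used as an alternative.

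The log2 intensity of each array was taken relative to its 75th percentile over non-control spots, without the 278 to 501 spots per array that carried a flag for unevenness or as an outlier, and repeated spots were averaged. Genes were represented by the tested probe with the highest mean signal. Differences were fitted with limma 3.58.1 in R 4.3.3 over all 25400 tested probes, with a mean for each line and Benjamini-Hochberg adjustment of p. Python 3.11.15 with pandas 2.3.3, numpy 2.4.6 and matplotlib 3.10.9 was used for the rest. The fit was tested on simulated data.

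The fit behind the main calls had no block for slide or replicate number. The replicate numbers were taken to pair the arrays only in the replicate block and in the differences within replicate numbers. Deviations from the line means correlated between same-numbered arrays with r between 0.35 and 0.88. Within slide 2 alone, where the difference between slides plays no part, r was lower, at 0.22, 0.058 and 0.047. Whether the 3 experiments per line used separate cultures is not given beyond their being called independent, so p-values measure the spread between these arrays. The number of arrays limits the precision. The source label of WT replicates 2 and 3 names a line with another number than the cell line label, HEK293, which was used.

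The named genes include all members with every probe, MAP2K1, the called genes of the lists (at most 8 per list with the largest change) and the 3 genes most like each member. Genes of the lists that were not called and markers of cell types are named as well. The members and lists were chosen with earlier results of these data known. Alternatives changed the background correction, scaling, filter on dim probes, choice of probe, block, arrays in the fit and test. They took in a t-test without adjustment, where a call needed an unadjusted p below 0.05 and over 2-fold. A slide block with no filter on dim probes was added after seeing the data. A result for 1 of the markers of other cell types is not reported here.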

Additional observations from a re-analysis of the deposited data

How the results depend on the processing

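In K57N against WT, SPRY2 was called under each of the 23 settings with a test, and SPRY4 under all 22 but Student's t-test with Benjamini-Hochberg adjustment (adjusted p = 0.057). The study called genes by an adjusted p below 0.05 and over 2-fold, and reported genes both higher and lower in F53S than in WT cells. At those thresholds limma called 0% of all genes here in that comparison. The method of adjustment is not given in the sources used here, and the reason for the difference was not tested. The adjusted t-test left 1 member (SPRY2) in K57N against WT and 0 in K57N against F53S. Against F53S, where 1 member was called in K57N, the count was 2 with the slide block, with the replicate block, with the compared lines alone in the fit, with normexp, on slide 2 alone and with the unadjusted t-test, and 0 with no filter on dim probes. Leaving out 1 array gave 0 to 2, with 2 without WT replicate 1. In F53S against WT it gave 0 to 1, and the unadjusted t-test 1, in both cases SPRY4. The replicate block, under which SPRY4 was 1.69 higher in K57N than in F53S cells (adjusted p = 0.0145), moved the count in K57N against WT to 4 and changed no call in F53S against WT. The sign turned for SPRY3 in K57N against WT on slide 1 alone (0.043, a comparison without a test, added after seeing the data). For SPRY1 in K57N against F53S it turned on slide 2 alone (0.036) and without F53S replicate 1 (0.083), where leaving out 1 array gave -0.40 to 0.083. The causes were not tested. Another scaling moved the median of all genes by at most 0.036. No member was called lower under any setting.

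Precision was limited by 3 arrays per line, by the dimmer slide 1 and by signals near background for SPRY3, SPRED3, SPRY4 probe 2 and, in WT cells, SPRY4 probe 1, DUSP5, ETV4, ETV5 and PHLDA1.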
